A study of Mus musculus with 2 samples.

Results

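The 6 genes described here encode the myosin heavy chains of skeletal muscle: Myh1, Myh2, Myh3, Myh4, Myh7 and Myh8. They were taken by symbol from the 32285 mouse genes counted in 2 single-nucleus RNAseq libraries of the injured tibia. One library came from C57BL6 mice (C57BL/6ScNj in the methods) at day 1 after an open, non-stabilized tibial fracture, the other from C57BL6 mice at day 5 post-MTI, a musculoskeletal traumatic injury that combines the same fracture with a crush of the surrounding hindlimb muscles. In both, the mice were 10 to 14 weeks old with sexes mixed, and 3 or 4 animals were pooled, so that each group is 1 library without a replicate. After the tissue around the bone had been taken off, activated periosteum was scraped together with hematoma or callus, and nuclei were sorted by a DNA dye before droplet capture. Muscle nuclei were not sought in this dissection, and the study set myogenic nuclei aside. Day and injury differ together, so their parts in any difference between the libraries cannot be told apart, and no test between the libraries was made.

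At day 1 post-fracture, 2405 of 48987 barcodes passed the filters of the methods, with 1202240 UMIs (unique molecular identifiers, which count captured RNA molecules) and a median of 409 UMIs. Of these nuclei, 986 (41.0%) had a UMI of a member and 261 had at least 3. At day 5 post-MTI, 1127 of 1446 barcodes passed, with 4337337 UMIs and a median of 2364 UMIs. There 136 nuclei (12.1%) had a UMI of a member and 85 had at least 3. The study, which also removed myogenic nuclei, reports fewer nuclei for both libraries, far fewer at day 1. Its sets of nuclei were not reproduced here. The libraries shared 33 barcode sequences, 15 of them among filtered nuclei. Levels are UMIs of a gene per 1000000 UMIs of the same set of barcodes (CPM). Values in parentheses after a level, share or ratio are 95% intervals, exact Poisson for levels, Clopper-Pearson for shares and conditional binomial for ratios. They cover counting error only.

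A myosin heavy chain is the motor of the thick filament, and the isoform a fibre makes sets how fast it contracts. In adult limb muscle of the mouse, Myh7 is made by slow fibres, Myh2 by type 2A, Myh1 by type 2X and Myh4 by type 2B fibres, the fastest. Myh3 (embryonic) and Myh8 (neonatal) are made during development and again in fibres that regenerate after injury. A fibre is a syncytium with many nuclei, and each nucleus transcribes these genes from its own chromosomes. RNA outside nuclei is also captured in droplets, so that a UMI can come from free RNA of lysed fibres.

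Myh3, Myh2, Myh1, Myh4 and Myh8 lie in this order on the plus strand of chromosome 11 of GRCm38 (mm10), within 230.3 kb from the start of Myh3 to the end of Myh8. Only 2.53 kb separate the end of Myh2 from the start of Myh1. Myh13 follows Myh8, and the antisense gene Myhas overlaps Myh1 on the minus strand. Myh7 lies on the minus strand of chromosome 14, from 54970684 to 54994626. The promoters of the genes of the cluster are shown because 4 of them hold the same runs of bases. The lines give the 250 bases before each RefSeq start (GRCm38.p6, plus strand, 5′ to 3′), for Myh1 chr11:67199852-67200101, for Myh2 chr11:67170777-67171026, for Myh4 chr11:67237562-67237811, for Myh8 chr11:67276874-67277123 and for Myh3 chr11:67078050-67078299, with shared runs in capitals.
Myh1: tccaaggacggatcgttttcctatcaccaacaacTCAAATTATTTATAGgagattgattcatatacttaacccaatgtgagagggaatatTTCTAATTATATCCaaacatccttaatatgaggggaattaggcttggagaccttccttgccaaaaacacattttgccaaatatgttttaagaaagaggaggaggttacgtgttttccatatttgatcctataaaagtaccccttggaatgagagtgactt
Myh2: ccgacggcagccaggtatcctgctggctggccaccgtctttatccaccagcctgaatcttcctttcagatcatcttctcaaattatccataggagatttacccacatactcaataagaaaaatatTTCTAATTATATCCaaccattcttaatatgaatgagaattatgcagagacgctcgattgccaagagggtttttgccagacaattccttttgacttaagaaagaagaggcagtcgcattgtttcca
Myh4: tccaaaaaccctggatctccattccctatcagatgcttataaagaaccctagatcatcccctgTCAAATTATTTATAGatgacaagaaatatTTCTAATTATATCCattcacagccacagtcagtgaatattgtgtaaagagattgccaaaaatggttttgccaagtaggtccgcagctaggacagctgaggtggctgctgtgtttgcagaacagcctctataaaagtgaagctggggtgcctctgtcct
Myh8: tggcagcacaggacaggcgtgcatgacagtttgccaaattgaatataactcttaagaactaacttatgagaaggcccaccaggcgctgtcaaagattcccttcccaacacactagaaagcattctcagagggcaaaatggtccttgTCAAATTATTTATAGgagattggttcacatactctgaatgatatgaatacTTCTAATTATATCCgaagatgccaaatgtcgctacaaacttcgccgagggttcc
Myh3: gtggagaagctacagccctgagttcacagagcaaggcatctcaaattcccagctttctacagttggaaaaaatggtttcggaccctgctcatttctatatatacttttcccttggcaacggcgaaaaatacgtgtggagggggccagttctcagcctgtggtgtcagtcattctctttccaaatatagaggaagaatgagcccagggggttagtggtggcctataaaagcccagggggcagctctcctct
The run TTCTAATTATATCC (14 bases) was present in 4 of 32851 promoter windows of the mouse table, those of Myh1, Myh2, Myh4 and Myh8, with its first base 160, 125, 158 and 54 bases before the start. The run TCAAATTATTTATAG (15 bases) was present in 3 windows, those of Myh1, Myh4 and Myh8, 216, 187 and 104 bases before the start. Both counts were the same on either strand, and both runs were found by comparing these promoters with each other. The letters TATAAA lay 29 bases before the start of Myh3, 32 before that of Myh1 and 31 before that of Myh4, and again 213 bases before the start of Myh4. They occur on the plus strand of 8.32% and on either strand of 13.6% of all windows, and their reverse complement lies inside the longer run. All 6 members had a promoter entry. These runs are a description of the letters and say nothing of a factor.

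Because the members are paralogs, some reads cannot be given to 1 gene. In 1 transcript per gene of the annotation, 11.4% of the 91-base windows of Myh1 and 11.6% of those of Myh2 were identical to a window of another member, against 5.25% for Myh4, 6.90% for Myh8, 0.0673% for Myh3 and none for Myh7. In the last 600 bases, where this 3′ chemistry reads most, 35 of 510 windows of Myh1 and 31 of Myh2 were shared, 4 of Myh3 were, and 0 of Myh4, Myh7 and Myh8 were. Low Myh2 values beside high Myh1 values are therefore the least certain of the 6.

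At day 1 post-fracture, the adult fast isoforms Myh1 and Myh4 made up most of the myosin heavy chain UMIs of nuclei. Myh1 had 1286 UMIs, 1070 CPM (1012 to 1130), and Myh4 had 781, 650 CPM (605 to 697). Myh2 had 183 UMIs, 152 CPM (131 to 176). The slow Myh7, the embryonic Myh3 and the neonatal Myh8 were rare, with 11, 14 and 11 UMIs. Of the 2286 myosin heavy chain UMIs, 56.3% (54.2 to 58.3%) were Myh1, 34.2% (32.2 to 36.1%) Myh4 and 8.01% (6.93 to 9.19%) Myh2. Per kb of gene span the shares were 54.9% for Myh1, 36.5% for Myh4 and 7.23% for Myh2. The order Myh1, Myh4, Myh2 was the same on the scale of UMIs, per kb of span and per kb of exons, and the intervals of their UMI shares did not overlap, while those of Myh3, Myh7 and Myh8 overlapped each other.

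At day 5 post-MTI, the order was another, and both developmental isoforms were among the abundant ones. Myh4 had 972 UMIs, 224 CPM (210 to 239), and Myh1 had 720, 166 CPM (154 to 179). The neonatal Myh8 had 546 UMIs, 126 CPM (116 to 137), and the embryonic Myh3 had 379, 87.4 CPM (78.8 to 96.6). Myh2 had 100 UMIs, 23.1 CPM (18.8 to 28.0), and Myh7 had 12. Of 2729 myosin heavy chain UMIs, 35.6% (33.8 to 37.4%) were Myh4, 26.4% (24.7 to 28.1%) Myh1, 20.0% (18.5 to 21.6%) Myh8 and 13.9% (12.6 to 15.2%) Myh3. The order of Myh8 and Myh3 depended on gene length. Per kb of span Myh8 had 15.7% and Myh3 14.3%, and per kb of exons Myh8 had 11.6% and Myh3 15.7%. The share of Myh8 also rested on few nuclei, since it was 10.1% without the 10 nuclei with most myosin heavy chain UMIs.

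**Figure D1:**
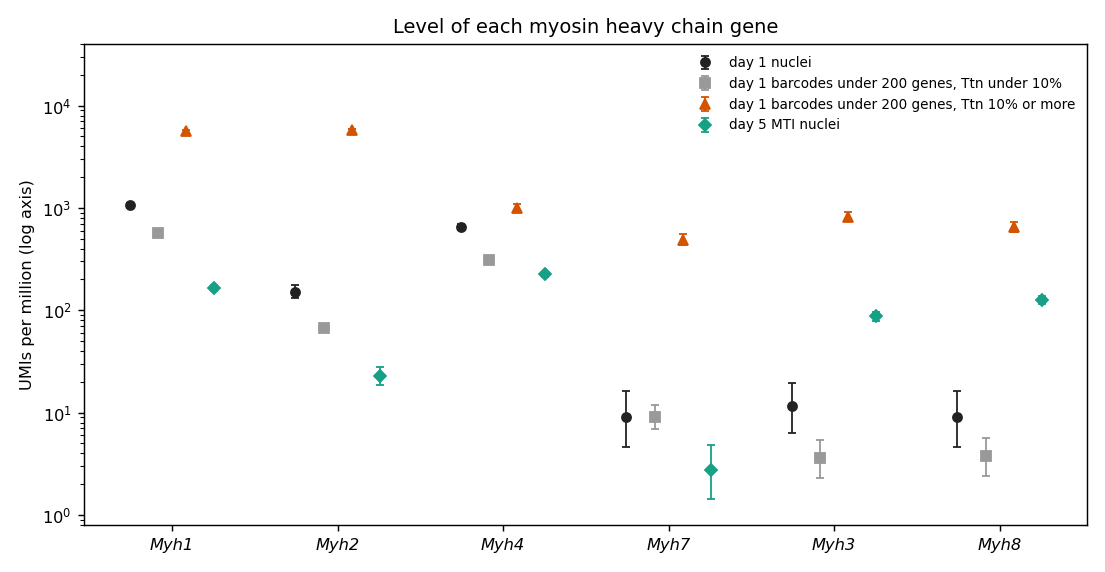
Level of each myosin heavy chain gene in CPM (log axis) in day 1 nuclei (circles), day 1 barcodes under 200 genes with under 10% (squares) or at least 10% (triangles) of their UMIs on Ttn, and day 5 post-MTI nuclei (diamonds), with bars for the 95% Poisson interval. Myh3 and Myh8 stand at 87.4 and 126 CPM in MTI nuclei and at 11.6 and 9.15 CPM in day 1 nuclei, and the triangles are the highest point of every gene.

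Barcodes with fewer than 200 genes, which fell under the limit for a nucleus, were taken as the measure of free RNA. At day 1 there were 43464 of them, which had a median of 148 UMIs and held 12985 of the 16755 myosin heavy chain UMIs of the library (77.5%). Their isoforms were mixed differently from those of nuclei. Myh1 was at 926 CPM (903 to 949), Myh2 at 460 CPM (444 to 476), Myh4 at 358 CPM (344 to 373), Myh3 at 60.3 CPM, Myh8 at 48.5 CPM and Myh7 at 42.6 CPM. The level in nuclei over that in these barcodes was 1.81 (1.67 to 1.96) for Myh4 and 1.16 (1.09 to 1.23) for Myh1, but 0.331 (0.283 to 0.384) for Myh2, 0.215 (0.106 to 0.390) for Myh7, 0.193 (0.105 to 0.328) for Myh3 and 0.189 (0.0933 to 0.342) for Myh8. Taken over all such barcodes, Myh2, Myh7, Myh3 and Myh8 were thus lower in nuclei than in free RNA. How many of all genes were lower was not counted. Genes of other cells could be lower too, such as S100a8 at 37.4 CPM in nuclei and 74.5 CPM in these barcodes. Others were higher, such as Cd247 at 29.1 and 15.3 CPM. For Myh1 the direction turned with the filters, to 0.925 (0.880 to 0.972) where nuclei with up to 5% mitochondrial UMIs were kept.

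The difference in Myh2, Myh3, Myh7 and Myh8 lay in a minority of barcodes rich in Ttn, the gene of titin, the giant spring protein of the sarcomere. Of the 43464 barcodes, 4142 (9.53%) had at least 10% of their UMIs on Ttn, and they held 6808 of the 12985 myosin heavy chain UMIs. They were small, with a median of 98 UMIs and 59 genes, and 97.1% of them had no mitochondrial UMI. Their UMIs were 25.7% Ttn, and Neb (nebulin, the ruler of the thin filament) was at 69065 CPM and Acta1 (skeletal actin) at 3021 CPM, against 2486 and 216 CPM in the other barcodes under 200 genes. Malat1, an abundant nuclear RNA, was at 35149 CPM, close to 36519 CPM in the others. In filtered day 1 nuclei it was at 78662 CPM. Whether some barcodes under 200 genes were nuclei with few UMIs was not tested. Markers of other cells were at or near 0, with 1 UMI of S100a8 (neutrophils), 3 of Adgre1 (macrophages), 0 of Pecam1 (endothelium), 0 of Postn (fibrogenic cells) and 20 of Col3a1. In these barcodes Myh2 was at 5719 CPM (5506 to 5938) and Myh1 at 5623 CPM (5412 to 5840), with shares of 40.0% and 39.3%. Myh4 was at 995 CPM (908 to 1089), a share of 6.96%. The members that were rare in nuclei were well measured there, Myh3 at 819 CPM (740 to 904), Myh8 at 647 CPM (576 to 723) and Myh7 at 491 CPM (430 to 558).

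In the other 39322 barcodes under 200 genes, the isoforms were mixed as in nuclei. Myh1 made up 59.3% (58.1 to 60.5%) of the UMIs of the 6 genes, Myh4 32.1% (30.9 to 33.3%), Myh2 6.91% (6.29 to 7.57%), Myh7 0.939%, Myh8 0.389% and Myh3 0.372%. Their levels were lower than in nuclei, 575 CPM for Myh1, 311 CPM for Myh4 and 67.0 CPM for Myh2. Against these barcodes, the level in nuclei was 1.86 (1.74 to 1.98) times higher for Myh1, 2.09 (1.92 to 2.27) for Myh4 and 2.27 (1.90 to 2.71) for Myh2, so that for Myh2 the direction depended on whether Ttn-rich barcodes were counted as free RNA. With nuclei of at least 10% Ttn left out too, these ratios were 1.55 (1.44 to 1.66), 1.79 (1.64 to 1.97) and 1.34 (1.07 to 1.68). In the same comparison the ratio was 1.53 (0.508 to 3.85) for Myh3, 0.731 (0.141 to 2.41) for Myh8 and 0.504 (0.158 to 1.25) for Myh7. In nuclei under 10% Ttn no level above free RNA was thus detectable for these 3 genes. Over all filtered nuclei, against the same barcodes, the ratio was 3.23 (1.54 to 6.54) for Myh3, 2.43 (1.07 to 5.15) for Myh8 and 1.01 (0.476 to 1.93) for Myh7, from 14, 11 and 11 UMIs in nuclei. The 3118 day 1 barcodes with 200 to 5000 genes that the mitochondrial and ribosomal limits removed had shares of 57.9% Myh1, 34.0% Myh4 and 6.74% Myh2, close to those of the nuclei that passed.

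The Ttn share of a barcode went with its isoforms across its range. Among barcodes under 200 genes, Myh2 was at 41.3 CPM where Ttn was under 1%, at 224 CPM where it was 5 to 10% and at 6258 CPM where it was 20 to 30%. Over the same classes Myh4 went from 221 to 686 to 1027 CPM, and Myh3 from 2.82 to 16.2 to 901 CPM. Filtered nuclei showed the same order. Myh2 was at 28.5 CPM in the 598 nuclei with under 1% Ttn and at 2526 CPM in the 13 nuclei with 20 to 30% Ttn, of which 92.3% had no mitochondrial UMI. At least 10% Ttn was found in 186 of 2405 nuclei at day 1 and in 14 of 1127 after MTI. The 5 MTI nuclei with 20 to 30% Ttn had a median of 581 UMIs and held 15 UMIs of Myh1, 14 of Myh2, 4 each of Myh3, Myh4 and Myh7 and 1 of Myh8. What the Ttn-rich barcodes were was not tested. The MTI library held 27 barcodes under 200 genes, with 0 UMIs of the 6 genes, so no free RNA level of the same kind could be measured there.

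**Figure D2:**
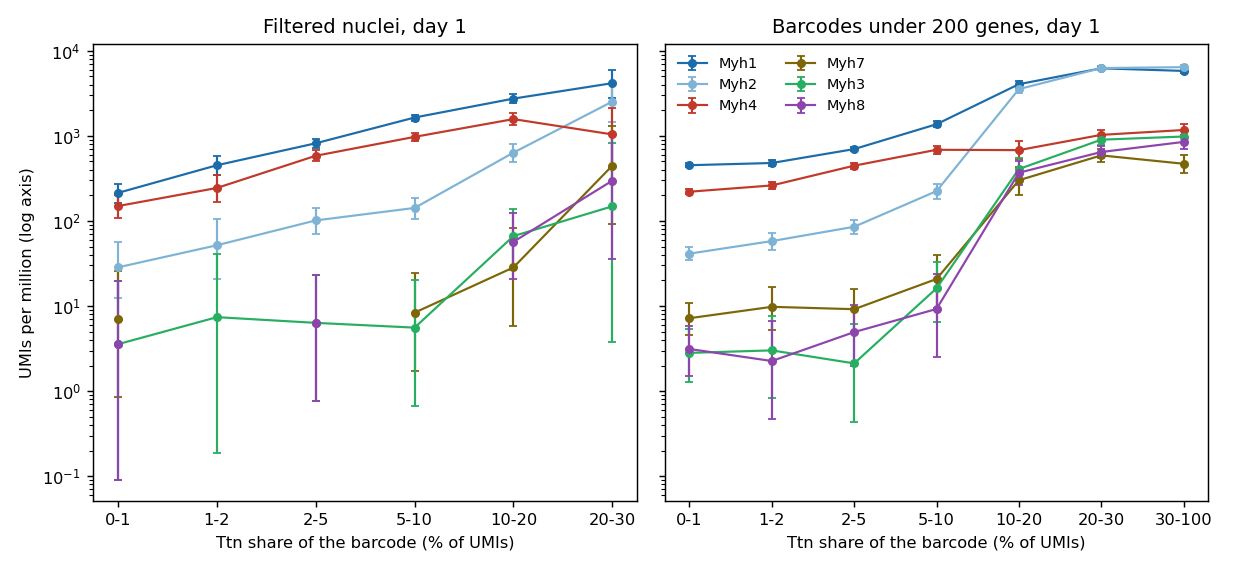
Level of each myosin heavy chain gene at day 1 (CPM, log axis) by the share of a barcode's UMIs on Ttn, in filtered nuclei (left) and in barcodes under 200 genes (right), with 95% Poisson intervals and genes with 0 UMIs in a class not drawn. In barcodes under 200 genes Myh2 rises from 41.3 CPM under 1% Ttn to 6258 CPM at 20 to 30% and meets Myh1 at 6219 CPM, while Myh4 goes from 221 to 1027 CPM.

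Most nuclei at day 1 that could be judged held UMIs of 1 isoform. Among the 261 nuclei with at least 3 myosin heavy chain UMIs, 153 (58.6%, 52.4 to 64.7%) held 1 isoform, 86 held 2 and 22 held 3 or more. With a leading isoform defined as at least 75% of these UMIs, 123 nuclei were led by Myh1, 60 by Myh4 and 7 by Myh2, and 71 by none. The nuclei with 3 or more isoforms were no deeper in all UMIs, with a median of 527 against 578 for those with 1 isoform. They had more myosin heavy chain UMIs, a median of 6 against 4, and a higher median Ttn share, 15.3% against 8.12%. The part of each in the number of isoforms seen was not tested. The barcodes taken as free RNA, which may include nuclei with few UMIs, gave a value of the same size. Of the 116 barcodes under 200 genes and under 10% Ttn that had at least 3 of these UMIs, 70 (60.3%, 50.8 to 69.3%) held 1 isoform, against 110 of 178 nuclei (61.8%, 54.2 to 69.0%) under 10% Ttn. At this minimum the shares in nuclei and in free RNA differed by less than counting error. With at least 5 of these UMIs, 34 of 56 such nuclei (60.7%, 46.8 to 73.5%) held 1 isoform. Of such barcodes, 3 of 8 did (37.5%, 8.52 to 75.5%). The barcodes had fewer of these UMIs, on which the number of isoforms seen depends. Whether a single isoform sets a day 1 nucleus apart from free RNA therefore cannot be decided here. Of the 1067 Ttn-rich barcodes under 200 genes with at least 3 of these UMIs, 154 (14.4%) held 1 isoform.

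At day 5 post-MTI, 37 of 85 nuclei (43.5%, 32.8 to 54.7%) held 1 isoform, 17 held 2 and 31 held 3 or more. The leading isoform was Myh4 in 23 nuclei, Myh1 in 15, Myh3 in 6, Myh8 in 5, Myh2 in 2 and none in 34. Here the nuclei with 3 or more isoforms were deeper, with a median of 10308 UMIs and 31 myosin heavy chain UMIs, against 6211 and 15 for those with 1 isoform. When every nucleus was thinned to 500 UMIs, which left out 1661 shallower day 1 nuclei and none after MTI, 21 of 48 MTI nuclei (43.8%) and 68 of 106 day 1 nuclei (64.2%) held 1 isoform. Among the 85 nuclei before thinning, 11 had at least 10% Ttn and 1 of these held 1 isoform, and of the other 74, 36 did.

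Myh1 and Myh4 were rarely abundant in the same MTI nucleus. Of the 38 MTI nuclei under 10% Ttn with at least 10 UMIs of both genes together, 21 had over 90% Myh4, 12 had over 90% Myh1 and 5 lay between. Of the nuclei with a single isoform, the highest of each kind held 140 UMIs of Myh4 and 73 UMIs of Myh1, with none of the other 5 genes. Nuclei with over 90% Myh1 in this sense could hold developmental isoforms. The one with most Myh1 had 101 UMIs of Myh1 and none of Myh4, but 47 of Myh8 and 7 of Myh3. Further nuclei had 79, 70, 51 and 46 UMIs of Myh4 alone, and 53 and 34 of Myh1 alone. The clearest exception held 65 UMIs of Myh1 beside 52 of Myh4 and 13 of Myh3. At day 1, 9 nuclei under 10% Ttn reached 10 UMIs of both genes together, and 5 of them had over 90% Myh1, 3 over 90% Myh4 and 1 lay between. After MTI, Myh2 was seen with other isoforms rather than alone. Of 6 nuclei under 10% Ttn with at least 3 UMIs of Myh2, 4 also had at least 3 of Myh1. The MTI nuclei with most Myh2 held 26 UMIs of Myh2 with 16 of Myh1, and 19 with 18, and no MTI nucleus with at least 3 myosin heavy chain UMIs held Myh2 alone, while 5 at day 1 did. Myh7, the slow isoform, reached at most 4 UMIs, in an MTI nucleus with 16 of Myh3 and 3 of Myh1, and led no nucleus with at least 3 of these UMIs in either library.

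The developmental isoforms, in contrast, were mixed with each other and with adult ones. Among MTI nuclei under 10% Ttn, 28 had at least 3 UMIs of Myh3 and 19 at least 3 of Myh8, and 16 had both, which is 57.1% of the first and 84.2% of the second. At least 3 UMIs of Myh1 were present in 10 of the 28 Myh3 nuclei, and at least 3 of Myh4 in 10. Of 32 such nuclei with at least 3 UMIs of Myh3 and Myh8 together, 20 also had at least 3 UMIs of adult isoforms. The most abundant adult isoform was Myh4 in 10, Myh1 in 9 and Myh2 in none. It was Myh7 in a nucleus with 4 UMIs of Myh7, 3 of Myh1 and 16 of Myh3. At day 1 no nucleus under 10% Ttn reached 3 UMIs of Myh3 and Myh8. The neonatal Myh8 was the most abundant isoform in nuclei such as one with 87 UMIs of Myh8, 15 of Myh3 and 3 of Myh4, and one with 68 of Myh8, 34 of Myh3, 6 of Myh1 and 2 of Myh4. A nucleus of another kind held 101 UMIs of Myh1 with 47 of Myh8 and 7 of Myh3, and one more 44 of Myh4 with 20 of Myh3, 14 of Myh8 and 2 of Myh1. The deepest nucleus of the set, with 22993 UMIs, held 5 isoforms, 56 UMIs of Myh8, 39 of Myh1, 23 of Myh4, 11 of Myh3 and 8 of Myh2. Of the nuclei with Myh3 alone, the highest had 12, 11 and 11 UMIs. No nucleus with at least 10 myosin heavy chain UMIs held Myh8 alone. A droplet with more than 1 nucleus also gives a mixture, and scrublet marked 3 of the 1127 MTI nuclei as doublets, none of which had 3 myosin heavy chain UMIs. Such a call looks for unlike nuclei in 1 droplet, so it cannot decide whether like fibre nuclei were captured together. As given above, the nuclei with 3 or more isoforms were deeper.

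**Figure D3:**
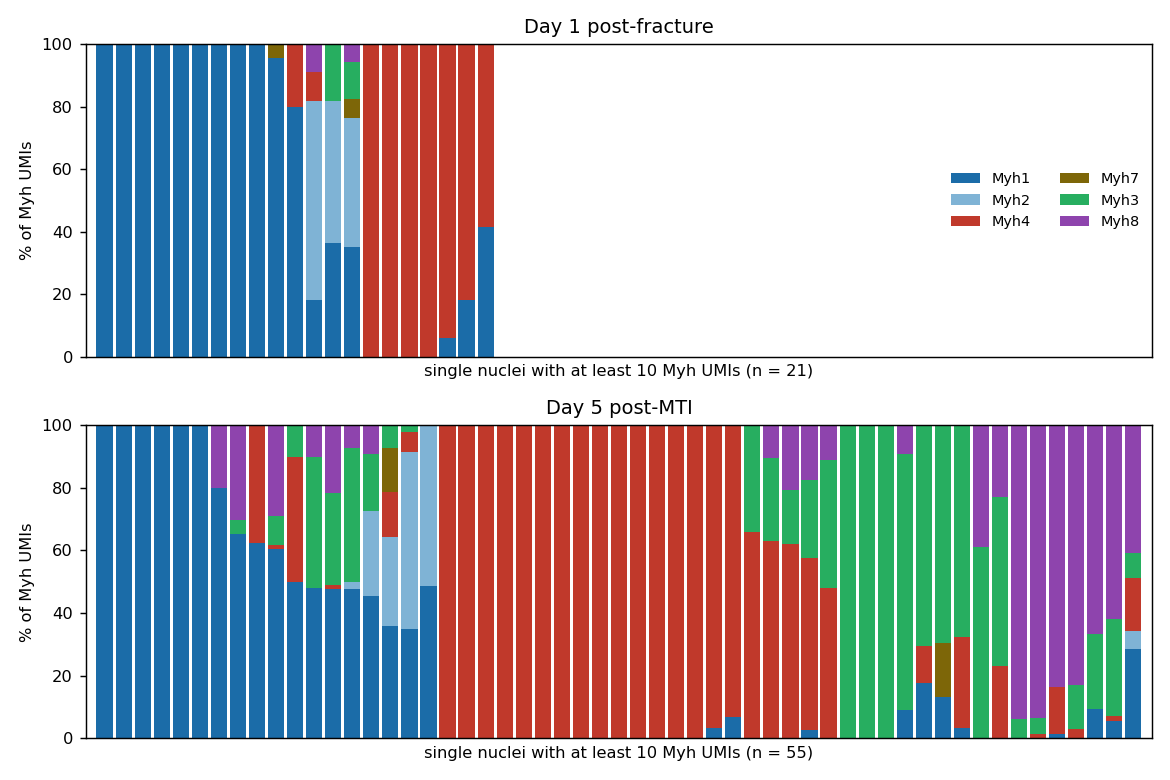
Isoform composition of every nucleus with at least 10 myosin heavy chain UMIs, 21 at day 1 post-fracture (top) and 55 at day 5 post-MTI (bottom), as percent of the nucleus's UMIs of the 6 genes, 1 bar per nucleus, grouped by the most abundant isoform. Full bars of Myh1 and of Myh4 occur in both libraries, whereas bars with Myh3 or Myh8 are mostly divided, and the 3 day 1 nuclei with most Myh2 hold 3 to 5 isoforms.

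The 21 day 1 nuclei with at least 10 of these UMIs showed the same adult pair. Of these, 11 had most UMIs on Myh1, 9 of them on Myh1 alone with up to 20 UMIs, and 7 had most on Myh4, with 28 UMIs of Myh4 alone in the highest. The 3 in which Myh2 was the most abundant isoform, at 41.2 to 63.6% of these UMIs, had 424 to 554 UMIs and 17.5 to 19.1% Ttn. They held 3 to 5 isoforms, with 5 to 7 UMIs of Myh2, as in the Ttn-rich barcodes.

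Nuclei were clustered in each library without the 6 genes, and clusters were named from markers only, so the names were rebuilt and can differ from those of the study. At day 5 post-MTI, 1 muscle fibre-like cluster of 99 nuclei, led by genes such as Myot, Smpx and Trdn and with all 12 fibre markers, held 2647 of the 2729 myosin heavy chain UMIs (97.0%, 96.3 to 97.6%). This cluster also had 4 satellite cell and myoblast markers. It held 948 UMIs of Myh4, 707 of Myh1, 535 of Myh8, 358 of Myh3, 91 of Myh2 and 8 of Myh7, and 88.9% of its nuclei (median 5588 UMIs) had a UMI of a member. In the immune-like cluster led by Ppbp and Arg1, where these genes should be silent, 4.10% of nuclei did (median 3132 UMIs). Levels of all 6 genes together were 3789 CPM in the fibre cluster and 0 to 145 CPM in the others. The satellite cell and myoblast-like cluster of 26 nuclei, led by Chodl, Dcx and Pax7, the factor of muscle stem cells, held 14 UMIs, 10 of them of Myh3 and 2 of Myh8. Its Ttn share had a median of 0.165%. The 32 erythroid-like nuclei had 0 UMIs, which allows up to 17.9 CPM.

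At double the clustering resolution the MTI fibre nuclei fell into clusters that differed mainly in Myh8, Myh3 and Myh2, although none of the 6 genes entered the clustering. Myh1 and Myh4 did not separate. In the larger and the smaller cluster Myh1 was at 824 and 1277 CPM and Myh4 at 1663 and 916 CPM, against 14.6 and 1835 CPM for Myh8. The cluster of 74 nuclei held 684 UMIs of Myh4, 339 of Myh1, 82 of Myh2, 62 of Myh3 and 6 of Myh8. The cluster of 26 nuclei held 529 UMIs of Myh8, 368 of Myh1, 297 of Myh3, 264 of Myh4 and 9 of Myh2. Every nucleus of the smaller cluster had a UMI of a member. It was led by genes such as Tecrl, Sim1 and Snrpn, was deeper (median 11254.5 against 4708.5 UMIs) and had more mitochondrial UMIs (median 0.472% against 0.0703%). The part of depth and of mitochondrial content in this split was not tested.

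At day 1 no cluster was free of these genes. The 3 muscle fibre-like clusters, 573 nuclei in all, held 1288 of the 2286 UMIs (56.3%, 54.3 to 58.4%). The largest of them (333 nuclei, led by Klhl38, Tmem100 and Rpl3l) held 555 UMIs of Myh1 and 368 of Myh4, 4.14 (3.78 to 4.52) and 5.07 (4.53 to 5.67) times the level of barcodes under 200 genes and under 10% Ttn. Its Myh2, 18 UMIs, was at 1.15 (0.675 to 1.84) times that level. A cluster of 208 nuclei, led by Hcfc1, Snrnp40 and Bcl9l, had 3.89 (2.49 to 5.83) times that level of Myh2, 2.18 (1.80 to 2.61) of Myh1 and 1.41 (1.01 to 1.91) of Myh4. Next among its leading genes were Cpt1b and Ankrd2, which act in fatty acid import to mitochondria and in the stretch response. The smallest, of 32 nuclei with a median Ttn share of 17.8% and no mitochondrial UMI in the median nucleus, held 68 UMIs of Myh2, 55 of Myh1, 11 of Myh4, 9 of Myh3, 8 of Myh8 and 6 of Myh7. Its Myh2 was 67.8 (51.7 to 87.8) times that level. Clusters named for other cells were near or under free RNA in Myh1. In the immune-like clusters whose leading genes included S100a8 in one and Cxcl3 in the other, Myh1 was at 0.816 (0.589 to 1.10) and 0.537 (0.356 to 0.778) times that level. Myh4 was at 1.54 (1.12 to 2.08) times it in the first, above it by more than counting error. In the fibrogenic (IIFC)-like cluster led by Cxcl5, Myh1 was at 0.818 (0.467 to 1.33). A cluster led by Atf3, Nes and Egr1 with 3 satellite cell markers had 0.773 (0.569 to 1.03). In the immune-like cluster with fewest of these UMIs 16.5% of nuclei had one (median 338 UMIs), against 77.8% in the largest fibre-like cluster (median 558 UMIs), so detection alone did not mark a fibre nucleus at day 1. The 4 unnamed clusters, of 221 to 354 nuclei, held 745 of these UMIs, and 2 of them were above free RNA in Myh1 and Myh4. Those 2 had 2540 and 2043 CPM of the 6 genes together, against 1962 CPM in the fibre-like cluster of 208 nuclei. The share of 56.3% in fibre-like clusters thus depended on which clusters were named. In a cluster of 242 nuclei led by Ufl1, the interval for Myh1 was 2.09 to 2.97 times its free level, Myh2 was at 3.13 (1.89 to 4.90) and Myh4 at 2.84 (2.25 to 3.53) times. In one of 224 nuclei led by Rab3b, Myh1 was at 1.84 (1.51 to 2.22) and Myh4 at 2.83 (2.27 to 3.48) times. In the other 2, Myh1 was at 1.15 (0.928 to 1.41) and 0.708 (0.557 to 0.887) times. The first of these, of 354 nuclei, had Myh4 at 1.05 (0.771 to 1.41) times. Its Myh2, 19 UMIs, was at 1.97 (1.18 to 3.12) times, above free RNA by more than counting error.

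To see what else differed with the isoform, nuclei led by Myh1 (at least 75% of at least 3 myosin heavy chain UMIs) were set against nuclei led by Myh4, as summed levels with a ratio of 2 in either direction as the limit, over genes with at least 20 UMIs. These are nuclei of 1 library and no test was made. At day 5 post-MTI, 530 of 2482 genes (21.4%) lay past the limit, with 8.98% higher in Myh1 nuclei and 12.4% lower, and the median ratio of Myh1 over Myh4 nuclei was 0.963. The groups were 15 nuclei with 105413 UMIs and 23 nuclei with 162483 UMIs, with median depths of 5384 and 6893 UMIs and median Ttn shares of 4.20% and 4.43%. The groups held 263 and 4 UMIs of Myh1 and 0 and 674 of Myh4, which the choice of nuclei fixes.

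Genes of fast contraction were lower in Myh1 than in Myh4 nuclei after MTI. Of 10 such genes, all 10 were measured, 4 were past the limit on the lower side and 0 on the higher, with a median ratio of 0.574 and a summed ratio of 0.622 (0.563 to 0.687). Pvalb, which encodes parvalbumin, a calcium buffer of the fastest fibres, had 72 UMIs in 15 of the 23 Myh4 nuclei and 1 UMI in the 15 Myh1 nuclei, 46.7 (8.12 to 1870) times higher in Myh4 nuclei. Mybpc2 (fast myosin-binding protein C) was 2.19 (1.41 to 3.50) times higher, Tnni2 (fast troponin I) 2.21 (1.07 to 5.01) times and Tnnc2 (fast troponin C) 3.24 (1.09 to 13.1) times. Short of the limit, Atp2a1 (the fast calcium pump) was at 1.75 (1.44 to 2.14) and Tnnt3 (fast troponin T) at 1.73 (1.39 to 2.16), while Myl1, a fast light chain, was at 1.13 (0.934 to 1.36).

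Glycolytic genes lay on the same side. Of 10, 8 were measured and 5 were past the limit, all lower in Myh1 nuclei, with a median ratio of 0.465 and a summed ratio of 0.488 (0.423 to 0.561). Relative to Myh1 nuclei, Myh4 nuclei had 2.60 (1.80 to 3.83) times more Pygm, the muscle glycogen phosphorylase, 3.83 (2.37 to 6.49) times more Pgm1, which moves the phosphate of glucose, 2.08 (1.23 to 3.69) times more Pfkm, the muscle phosphofructokinase, and 7.79 (1.93 to 68.0) times more Pfkfb1. Ldha was at 2.22 (0.930 to 6.11), an interval that includes 1. Genes of the sarcomere and triad of every fibre mostly did not reach the limit, with 2 of 14 past it, both lower (Ckm and Myom2), and a median ratio of 0.906. Ttn itself was at 1.09 (1.05 to 1.13) in Myh4 over Myh1 nuclei.

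Both measured genes of the junction list, Musk and Ankrd1, were past the limit on the higher side in Myh1 nuclei after MTI, and the denervation list had 1 gene past it on each side. Of 5 measured denervation and atrophy genes, Runx1, a transcription factor that rises in denervated muscle, was 2.83 (2.28 to 3.52) times higher in Myh1 nuclei and was seen in 11 of 15, while Trim63, a ubiquitin ligase of atrophy, was 2.54 (1.63 to 4.12) times higher in Myh4 nuclei. Musk, the receptor kinase that organizes the neuromuscular junction, was at 2.13 (1.62 to 2.81) in Myh1 over Myh4 nuclei, and the adhesion gene Ncam1 at 5.19 (3.64 to 7.54). These ratios rested partly on single nuclei. Without the nucleus with most UMIs of the gene they were 2.16 for Runx1, 1.95 for Musk and 3.27 for Ncam1. Ankrd1, a stretch-response gene, had a ratio of 7.12 (4.41 to 12), or 4.71 without its top nucleus. Of 5 oxidative genes, 2 were past the limit on each side. Pdk4 and Cd36 were past the limit on the higher side through 1 nucleus each, with ratios of 1.39 and 0.907 without it, and Ppargc1a, a coactivator of mitochondrial genes, was 3.05 (1.52 to 6.77) times and Ckmt2, the mitochondrial creatine kinase, 2.60 (0.837 to 10.7) times higher in Myh4 nuclei, the second with an interval that includes 1. Among 13 fibre-type regulators, 2 were past the limit, beside 21.4% of all 2482 genes, and the median ratio of the 13 was 0.986. Maf, a factor of the large Maf family that acts on type 2B fibres, was 2.95 (1.52 to 6.28) times higher in Myh4 nuclei. Tead4 was 2.16 (1.06 to 4.50) times higher in Myh1 nuclei, and the other 11 did not reach the limit.

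The genes with the largest differences were partly carried by 1 nucleus. Mylk4, a kinase of the myosin light chain kinase family, had the most UMIs among these, with 520 UMIs in 12 of 23 Myh4 nuclei against 9 in 3 of 15 Myh1 nuclei, 37.5 (19.6 to 82.4) times higher. The antisense gene Myhas, which lies between Myh1 and Myh4 and overlaps Myh1, had 44 UMIs in 11 Myh4 nuclei and 2 in Myh1 nuclei, 14.3 (3.72 to 122) times higher on the side where Myh1 was nearly absent. Pfkfb3, a glycolytic regulator, had 66 UMIs in 9 Myh4 nuclei and 2 in Myh1 nuclei, and Mlf1 had 31 and 1. Kcnab1 and Kcnn2, both potassium channel genes, had 0 UMIs in Myh1 nuclei against 73 and 27, at least 15.8-fold and 5.84-fold higher, but from 2 and 6 nuclei. On the Myh1 side, Mamdc2 had 48 UMIs in 7 nuclei against 2, 37.0 (9.70 to 314) times higher. B4galnt3 and, on the other side, Dab2 came from 1 nucleus each.

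**Figure D4:**
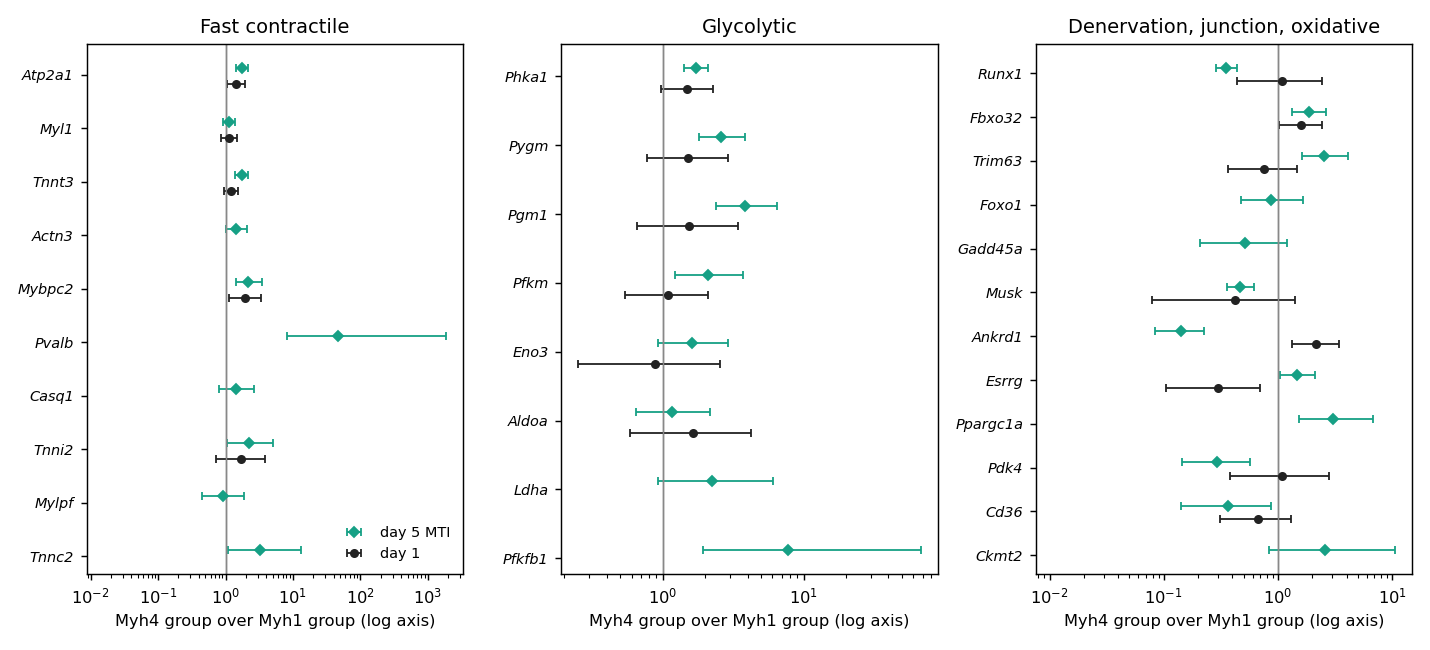
Level in nuclei led by Myh4 over that in nuclei led by Myh1 (log axis) for measured genes of 5 lists, at day 5 post-MTI (diamonds) and day 1 post-fracture (circles), with 95% conditional binomial intervals. After MTI all 8 glycolytic genes and 9 of 10 fast contractile genes lie right of 1, with Pvalb at 46.7, whereas Runx1, Musk and Ankrd1 lie left of it. Ankrd1 and Esrrg lie on opposite sides in the libraries.

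At day 1 the same groups held 123 and 60 nuclei but 118757 and 44730 UMIs, at median depths of 606 and 642.5 UMIs. Of 1041 genes, 149 (14.3%) lay past the limit, 9.03% higher in Myh1 nuclei and 5.28% lower, around a median of 0.963. Of the 5 fast contractile genes measured none was past it and all 5 were lower in Myh1 nuclei, with a median ratio of 0.700 and a summed ratio of 0.773 (0.673 to 0.889). Mybpc2 was at 1.97 (1.14 to 3.37) and Atp2a1 at 1.43 (1.04 to 1.95) in Myh4 over Myh1 nuclei. None of 6 glycolytic genes was past the limit (median 0.666). Free RNA was present in the same library, and its part in these ratios was not tested. Esrrg, a nuclear receptor of oxidative fibres, was 3.33 (1.43 to 9.47) times higher in Myh1 nuclei and Eya4 2.33 (1.22 to 4.88) times, while Sox6, a factor that represses slow genes in fast fibres, was 1.80 (1.34 to 2.41) times higher in Myh4 nuclei. Mylk4 had 87 and 42 UMIs, a ratio of 1.28 (0.865 to 1.87) in Myh4 over Myh1 nuclei. The 10 highest ratios in Myh1 nuclei included 4 predicted genes, Gm11168, Gm10721, Gm10718 and Gm10801, the last with 2686 against 190 UMIs, and Atf6, Pcf11 and Fbxw4 with 1 UMI in Myh4 nuclei. Among the lowest were Gpd2, Stat5b and Fn1 with 11, 10 and 11 UMIs in Myh1 nuclei. Further predicted genes were higher in Myh1 nuclei, such as Gm10719 with 564 against 42 UMIs. Gm10800 alone had 7559 of the 118757 UMIs of Myh1 nuclei, against 536 of 44730 in Myh4 nuclei. Other predicted genes were not, such as Gm42418 at a ratio of 0.729 (0.701 to 0.759). These counts enter the totals that scale every gene, and their part in the other ratios was not tested.

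Of 907 genes measured in both, 64 were higher in Myh1 nuclei at day 1 and 68 after MTI, and 9 were shared, 14.1% of the first and 13.2% of the second, while 6 of the 64 lay past the limit on the other side after MTI. On the Myh4 side the numbers were 50, 101 and 6 (12% and 5.94%), with 5 on the other side. Beside these overlaps stand the 68 and 101 of all 907 genes that were past the limit after MTI on the Myh1 and the Myh4 side. On the Myh4 side the overlap was thus near the share over all genes. On the Myh1 side it was small, and neither overlap was tested. The shared genes included Fhl1, a LIM protein of muscle, with ratios of 2.26 (1.11 to 5.21) at day 1 and 4.26 (2.85 to 6.51) after MTI, and Musk, with 2.39 (0.702 to 12.6) and 2.13 (1.62 to 2.81). On the Myh4 side they included Gpd2, the mitochondrial glycerol phosphate dehydrogenase, with Myh1 over Myh4 ratios of 0.345 (0.138 to 0.855) and 0.343 (0.177 to 0.618), and Plcd4, with 0.402 (0.186 to 0.872) and 0.106 (0.0123 to 0.420).

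The nuclei with developmental isoforms were described in the same way after MTI. Nuclei with over 25% of their myosin heavy chain UMIs on Myh3 and Myh8 together (32 nuclei, 298730 UMIs) were set against the other 53 with at least 3 such UMIs (322601 UMIs). Of 4707 genes, 1121 (23.8%) lay past a ratio of 2, 13% higher and 10.8% lower, around a median of 1.02. The nuclei with developmental isoforms were deeper (median 10154.5 against 5018 UMIs) and had more mitochondrial UMIs (median 0.429% against 0.0547%), and 1 of them against 10 of the others had at least 10% Ttn. The part of these in the ratios was not tested. Without nuclei of at least 10% Ttn, 1100 of 4675 genes lay past the limit.

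Genes of differentiating and regenerating fibres were higher in the nuclei with Myh3 and Myh8. Of 8 measured, 5 were past the limit and all 5 were higher, with a median ratio of 3.18 and a summed ratio of 3.34 (2.98 to 3.75). Tnnt2, the cardiac troponin T that immature fibres also make, was at 11.7 (4.70 to 37.4), with 54 UMIs in 20 of 32 nuclei against 5 in 3 of 53. Actc1, the cardiac actin of immature fibres, was at 5.94 (2.46 to 17.3), Myl4, an embryonic light chain, at 4.50 (2.36 to 9.28), Ncam1 at 3.53 (3.09 to 4.03) and Megf10, a receptor of myoblasts, at 2.84 (1.65 to 5.10). Myod1, the myoblast factor, had 12 and 13 UMIs, a ratio of 0.997 (0.416 to 2.37), and Chrng, the fetal acetylcholine receptor subunit, was at 1.28 (0.695 to 2.36). Slow contractile genes were higher too, 4 of 6 measured being past the limit, with a median of 2.94. Casq2, the calsequestrin of slow and cardiac muscle, had 81 UMIs in 20 nuclei against 4 in 3, a ratio of 21.9 (8.22 to 82.2). Tnni1 (slow troponin I) was at 4.72 (2.15 to 11.8), Atp2a2 (the slow calcium pump) at 3.44 (2.29 to 5.29) and Tnnt1 (slow troponin T) at 2.44 (1.39 to 4.44). The slow myosin itself, Myh7, had 4 UMIs in each group.

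The general sarcomere genes were divided around a median ratio of 0.957. Of 14, 3 were past the limit, near the share of 23.8% over all 4707 genes. These 3 were Actn2 (Z-disc actinin) at 2.34 (1.84 to 2.98), Cacna1s (the calcium channel of the triad) at 2.27 (1.75 to 2.98) and Mybpc1 at 2.19 (2.02 to 2.37). Ttn was at 0.779 (0.758 to 0.799) and Acta1 at 1.00 (0.762 to 1.32). The fast contractile genes were divided too. Pvalb, Mybpc2 and Actn3 were 4.03 (2.36 to 7.29), 3.17 (2.16 to 4.77) and 2.08 (1.57 to 2.79) times lower with Myh3 and Myh8, whereas Myl1 was at 1.71 (1.54 to 1.90) and Mylpf at 1.65 (1.21 to 2.28) on the higher side. Of 8 glycolytic genes, 2 were past the limit on the lower side, Phka1 (a phosphorylase kinase subunit) 3.97 (3.26 to 4.86) times and Pfkfb1 13 (3.27 to 112) times. Of 5 denervation and atrophy genes, Fbxo32, the atrophy ubiquitin ligase atrogin-1, was 3.55 (2.61 to 4.89) times lower, and Runx1 was at 1.22 (1.08 to 1.38). Of 6 junction genes 3 were measured. Musk was 2.15 (1.72 to 2.70) times lower and Colq, the collagen tail of acetylcholinesterase, 4.32 (1.57 to 14.7) times higher. Of 15 fibre-type regulators measured, 1 was past the limit on the higher side and 3 on the lower, not all of them named here. Among the lower ones, Hdac4 was 2.32 (1.74 to 3.11) times and Eya1 2.42 (1.38 to 4.42) times lower. In the satellite cell list 1 of 6 genes was measured and did not reach the limit.

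Among the genes with the largest ratios, several were seen in many nuclei of 1 group. Cdh2 (N-cadherin, an adhesion molecule of myoblasts) had 38 UMIs in 11 nuclei with Myh3 and Myh8 and 0 in the others, at least 13.7-fold higher, and Sgce, a sarcoglycan, 29 UMIs in 12 nuclei against 0, at least 10.4-fold higher. Klhl13 had 68 UMIs in 12 nuclei against 1, 73.4 (12.7 to 2943) times higher. Slit2 and Slit3 were also among the 10 highest but each came from 1 nucleus, and 71.4% of the UMIs of Sim1 came from 1 nucleus. On the other side, Hs3st5, an enzyme of heparan sulfate, had 247 UMIs in 23 of 53 nuclei against 2, 114 (31.3 to 950) times higher in nuclei with at most 25% Myh3 and Myh8. The predicted gene Gm49906 had 125 UMIs in 26 nuclei against 1, 116 (20.4 to 4608) times higher there, and Vldlr, a lipoprotein receptor, 84 against 3, 25.9 (8.57 to 128) times. Mylk4 and Myhas, which went with Myh4 above, were 7.20 (5.59 to 9.42) and 5.35 (2.61 to 12.3) times higher in nuclei with at most 25% Myh3 and Myh8.

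**Figure D5:**
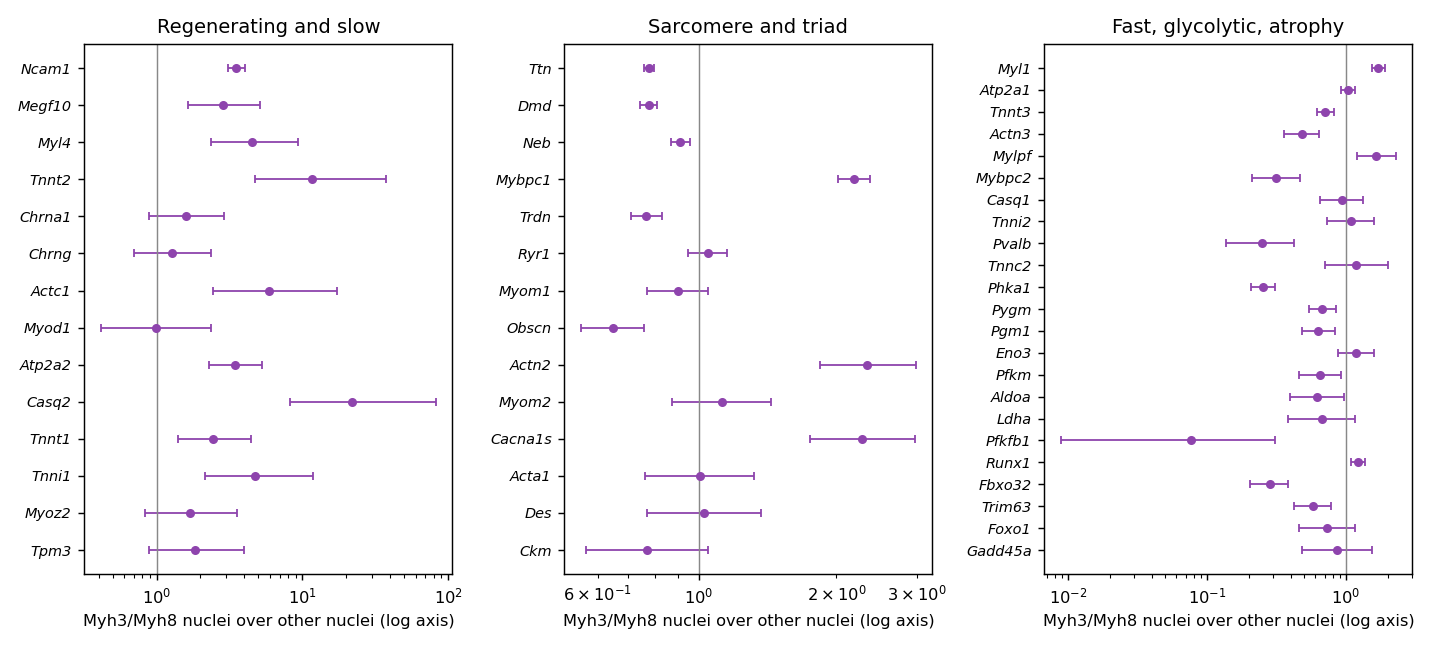
Level in the 32 MTI nuclei with over 25% of their myosin heavy chain UMIs on Myh3 and Myh8 over that in the other 53 (log axis, different in each panel), for measured genes of 6 lists, with 95% conditional binomial intervals. Casq2 stands at 21.9 and Tnnt2 at 11.7, most sarcomere genes lie near 1 with Actn2, Cacna1s and Mybpc1 above 2, and Pfkfb1 (0.0771), Pvalb and Phka1 lie lowest.

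Across the 25 clusters of both libraries with at least 20 nuclei, the genes most like Myh1, Myh2, Myh3, Myh4 and Myh8 were found by the Pearson correlation of log2(CPM + 10) among 8004 genes. Myh7 had too few UMIs for this. The clusters share 2 libraries and differ in depth and in their share of fibre nuclei, so these values are a description. Myh1 was most like Myot, a Z-disc protein gene (r = 0.988), Myh4 (0.976) and Trdn (0.973), and Myh4 was most like Myh1 and Myot (0.973), although single nuclei rarely held much of both. Myh2 was most like Tnni2 (0.917), Acacb (0.916) and Acta1 (0.911). Myh3 and Myh8 were most like each other (0.941), followed for both by Tnnt1 (0.822 and 0.747).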

How the data were processed

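Per the labels and the file headers, the authors counted 10x 3′ snRNAseq reads, introns included, with Cell Ranger 7.0.1 against mm10, and deposited the UMI counts of each library as a matrix. The labels also name a human reference, but all 32285 gene identifiers were mouse. Whether counting used strand is not given in the sources used here, so how reads from the stretch shared by Myhas and Myh1 were assigned is not known here. Nuclei were kept with 200 to 5000 genes, under 0.5% mitochondrial and 2.5% ribosomal UMIs at day 1, and under 5% and 2% after MTI, as in the methods. Doublets were kept, and scrublet in scanpy 1.11.5 (13 of 2405 nuclei, 0.541%, and 3 of 1127, 0.266%) served as an alternative. Nuclei were clustered by library in Seurat 5.3.0 (R 4.3.3) on 2000 variable genes without the 6 members, with 20 components and resolution 1.7 at day 1 and 30 and 1.0 after MTI. Counts were summed in Python 3.11.15 with numpy 2.4.6, scipy 1.17.1 and pandas 2.3.3, and figures drawn with matplotlib 3.10.9. Intervals are 95% and not adjusted for the number of genes. A count of 0 was bounded by 3 counts over the group. With 1 library per group no p-value was computed, since nuclei are not replicates. The ratio scripts were tested on simulated counts. Those counts had counting error only and no differences between nuclei, so they cannot show how far the intervals cover such differences. The members, lists and groups were chosen with earlier results of these data known. By rule, the text named the members, the list genes with most UMIs, the 10 highest and 10 lowest ratios whose interval left out 1, and the genes most like each member with at least 50 UMIs. Other named genes, those of the lists past the limit included, and the comparison of nuclei with developmental isoforms were chosen after their values were seen. Alternatives changed the filters, the minimum of UMIs, length scaling, clustering and the treatment of Ttn-rich barcodes. Some genes that these rules select are not reported here.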

Additional observations from a re-analysis of the deposited data

Results flagged for a closer look

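The first result lies outside the 6 genes. Myh13 is the extraocular isoform gene that follows Myh8 on chromosome 11. In the day 1 barcodes under 200 genes with at least 10% Ttn it was at 237 CPM. This came from 113 UMIs in 107 of 4142 barcodes and lay above the 6.30 CPM that 3 counts would give there. Myh13 was not alone in this. Myh6 and Myh7b were at 166 and 103 CPM there, from 79 and 49 UMIs. In the other barcodes under 200 genes, Myh13, Myh6 and Myh7b were at 6.75, 4.39 and 4.86 CPM. Myh9, Myh10 and Myh11 were lower in the Ttn-rich barcodes, and for Myh14 and Myh15 the intervals overlapped. The second result lies in barcodes that the filters removed. In the 271 MTI barcodes within the gene limits that the mitochondrial and ribosomal limits removed, Myh3 and Myh8 had 27 of the 38 myosin heavy chain UMIs, spread over 13 barcodes with at most 11 in 1, against a limit of 3 for a count of 0, while Myh4 had 0.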

How the results depend on the processing

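No paired analysis was possible because each group was 1 library and no result came from a test. Of the alternative values, 80 kept their direction and moved by less than counting error (for counts, by less than 1.5 times), 35 moved and 4 turned direction. At day 1, the Myh4 share was 39.3% with a minimum of 500 genes, 32.2% as the mean over single nuclei and 36.5% per kb of span, and the Myh2 share was 3.22% with a minimum of 500 genes and 5.81% without nuclei of at least 10% Ttn. After MTI, a mitochondrial limit of 0.5% gave 39.9% Myh4, 16.4% Myh8 and 12.2% Myh3. The mean over single nuclei gave 33.8% Myh4, 29.2% Myh1, 11.4% Myh8 and 16.7% Myh3. Without the 10 nuclei with most of these UMIs Myh4 was 42.9% and Myh8 10.1%. With no maximum of genes Myh1 was 30.2% and Myh3 12%. Per kb of span Myh4 was 39.4% and Myh8 15.7%, and per kb of exons Myh4 was 40.5%, Myh1 28.4%, Myh8 11.6% and Myh3 15.7%. The day 1 ratio of nuclei over free RNA turned for Myh1 to 0.765 against barcodes under 100 genes, 0.925 with a mitochondrial limit of 5% and 0.912 with no limit, and moved to 1.86 against barcodes under 10% Ttn. For Myh2 it was 0.145, 0.244 and 0.242 in the first 3 settings and 0.132 with a minimum of 500 genes, and it turned to 2.27 against barcodes under 10% Ttn. For Myh4 it was 1.64, 1.43, 1.41, 2.07 and 2.09 in the same order. With at least 5 myosin heavy chain UMIs per nucleus, 94 of 463 genes (20.3%) lay past a ratio of 2 between day 1 Myh1 and Myh4 nuclei, against 149 of 1041. The share of these UMIs in day 1 muscle fibre-like clusters was 64.5% at the lower resolution and 60.1% with nothing regressed out, against 56.3%. The cause of these changes was not tested. The alternatives on Ttn were chosen after seeing the data. The day 1 median of 409 UMIs per nucleus left 261 nuclei with at least 3 of these UMIs, which limits what single nuclei can show there.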
